A study of Rattus norvegicus with 6 samples.

Results

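The genes described here are 41 genes of the interferon response and of antigen presentation by MHC class I, chosen by their symbols from what is known of their function: the receptors of interferon, the transcription factors downstream of them, RNA sensors, antiviral effectors, enzymes that attach or remove ubiquitin-like and ADP-ribosyl groups, and the class I presentation machinery. The 41 genes were chosen with earlier results of these data known, so their shares are not those of an independently chosen list. All 41 were found among the 35291 genes of the table, and 33 of them reached a mean of 0.5 FPKM over the 6 samples, as did 20338 genes in all. FPKM counts sequenced fragments relative to transcript length and to library size, so levels of different genes can be compared. The RNA-Seq libraries came from testicular tissue of adult male Sprague-Dawley rats, an outbred stock, with 3 samples labelled STZ-induced diabetes (DM 1 to DM 3) and 3 from normal rats (Nor 1 to Nor 3). The diabetic rats had been fed a high-fat diet and then received a single intraperitoneal dose of streptozotocin (STZ), a toxin of pancreatic beta cells, in citrate buffer, while the controls were injected with citrate buffer alone. Testes were taken 8 weeks later. The exact ages of the rats and the diet of the controls are not given in the sources used here, so effects of the diet and of STZ cannot be told apart. The labels number the samples of a group without saying that each is a separate rat, and the p-values measure the spread between these samples.

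Interferons are secreted proteins that warn tissue of infection. Type I interferons bind the Ifnar1 and Ifnar2 receptor chains, interferon gamma binds Ifngr1 and Ifngr2, and JAK kinases at these receptors phosphorylate STAT proteins. A complex that holds Stat2 and Irf9 then binds the interferon-stimulated response element (ISRE), and the gamma-activated site (GAS) serves the response to interferon gamma, which switches on genes that block viral growth. The same signals raise class I presentation, in which the immunoproteasome cuts proteins into peptides, the Tap1 and Tap2 transporter carries them into the endoplasmic reticulum, and tapasin loads them onto a class I heavy chain paired with B2m. The testis is known as an immune-privileged organ, and class I molecules are found there mainly on cells other than the maturing germ cells.

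The promoters of many of these genes hold the letters that STAT and IRF proteins bind. RefSeq promoters of the GRCr8 assembly, each spanning 250 bases before and 50 after the start, were matched for 34 of the 41 genes, and Ddx58, Dhx58, Ifit2, Irf2, Isg15, Mx2 and Usp18 had no entry. The core of the ISRE, searched on both strands as GAAANNGAA, was in 20 of the 34 promoters (58.8%), against 9.71% of all 33469 promoters of that length. GAS, searched as TTCNNNGAA, which reads the same on both strands, was in 7 of 34 (20.6%), against 8.87% of all promoters. Over all promoters the motifs overlapped in 43. Of the 9 promoters of genes that were lower in DM at p below 0.05, 6 held the ISRE core and 3 held GAS, and of the 19 promoters of tested genes that were not called, 9 held the ISRE core and 3 held GAS. Windows of 24 bases are shown for genes that were lower in DM and held a motif, and for Psmb10 and Tapbp, which were not called. The promoters of Parp9 and Psmb9, which were also lower in DM, held neither motif, and Mx2 had no entry. The windows run 5′ to 3′ on the strand of the gene, and the capitals mark the motif.
B2m, ISRE core, chr3:129549173-129549196, plus strand: agaacatGAAACTGAAaatgggaa
Dtx3l, ISRE core, chr11:78320228-78320251, plus strand: gggaaacGAAACTGAAactttgcc
Parp14, ISRE core, chr11:78408051-78408074, plus strand: aggaaatGAAAGTGAAagaagtaa
Gbp2, ISRE core, opposite strand, chr2:234005690-234005713, plus strand: ttttagtTTCACTTTCattgtctt
Irf7, ISRE core, opposite strand, chr1:205800075-205800098, minus strand: tttaggtTTCATTTTCccgagacg
Psmb8, ISRE core, opposite strand, chr20:4657018-4657041, minus strand: tgtggctTTCGCTTTCacttcctt
Irf1, GAS, chr10:38417786-38417809, plus strand: gcctgatTTCCCCGAAatgatgag
Psmb10, ISRE core, chr19:50743293-50743316, minus strand: ggggggtGAAAGCGAAagtaggaa
Tapbp, ISRE core, chr20:4967881-4967904, minus strand: ggaaaatGAAAGTGAAaggaaaca
A match is a description of these letters only. The cores shown lay 3 bases before the start in Psmb8, 17 in Psmb10, 20 in Tapbp, 30 in Gbp2, 68 in Irf7, 76 in Parp14 and 150 in B2m, and 10 after it in Dtx3l, so genes that were called and genes that were not both carried the core close to the start.

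Most of the 33 tested genes had lower values in the diabetic testes. The log2 fold change, DM minus Nor on the scale of log2(FPKM + 0.1), was below 0 for 27 of them (81.8%). It was below 0 for 11313 of all 20338 genes. The median was -0.34 for the list against -0.02 over all 20338 genes. With limma, 10 of the 33 (30.3%) were lower at an unadjusted p below 0.05, where 4.99% of all tested genes were, and 1 (3.03%), Dhx58, was higher, where 2.47% of all tested genes were. The 10 were Irf1, Irf7, Gbp2, Mx2, Parp9, Parp14, Dtx3l, Psmb8, Psmb9 and B2m. Among them 5 also had a log2 fold change of -1 or less, the criterion of size and p: Psmb8, Psmb9, B2m, Parp14 and Mx2 (15.2%, against 0.846% of all genes), and none of the 33 met it in the other direction, against 0.398% of all genes. After Benjamini-Hochberg adjustment over the 20338 genes, 0 of the 33 had an adjusted p below 0.05 by limma (11 at the unadjusted threshold), as did 0.0344% of all genes, and the lowest adjusted p was 0.152, for Parp9. No single gene of the list was therefore called after adjustment. Of the 33 genes, 4 (Mx1, Mx2, Ifi44 and Trim21) reached the mean of 0.5 FPKM only through the higher Nor samples, so a lower level in DM is built into their selection. Over the 29 genes that reached it in both groups, 9 (31%) were lower at p below 0.05, against 4.73% of all genes that did so, and 4 (13.8%) met the criterion with DM lower, against 0.575%.

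Groups that did not overlap were seen for 14 genes with DM lower (42.4%, against 8.42% of all tested genes) and for 1 with DM higher (3.03%, against 4.56%). The exact two-sided permutation p was 0.1 for each of these 15 genes, the smallest that 3 samples against 3 allow. Over the 29 genes that reached 0.5 FPKM in both groups, 11 (37.9%) were apart with DM lower, against 8.07% of all such genes. Many of the genes were of low abundance. Among the 5832 genes between 0.5 and 2 FPKM, 5.69% were lower at p below 0.05, and among the 20 genes of the list in that range 8 were, with a median log2 fold change of -0.52 against -0.08. Between 2 and 10 FPKM 1 of the 10 genes of the list was lower, against 5.87% of all genes in that range, and above 10 FPKM 1 of 3, B2m, against 3.38%. In bulk tissue, fewer cells of a type and less RNA per cell cannot be told apart.

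**Figure D1:**
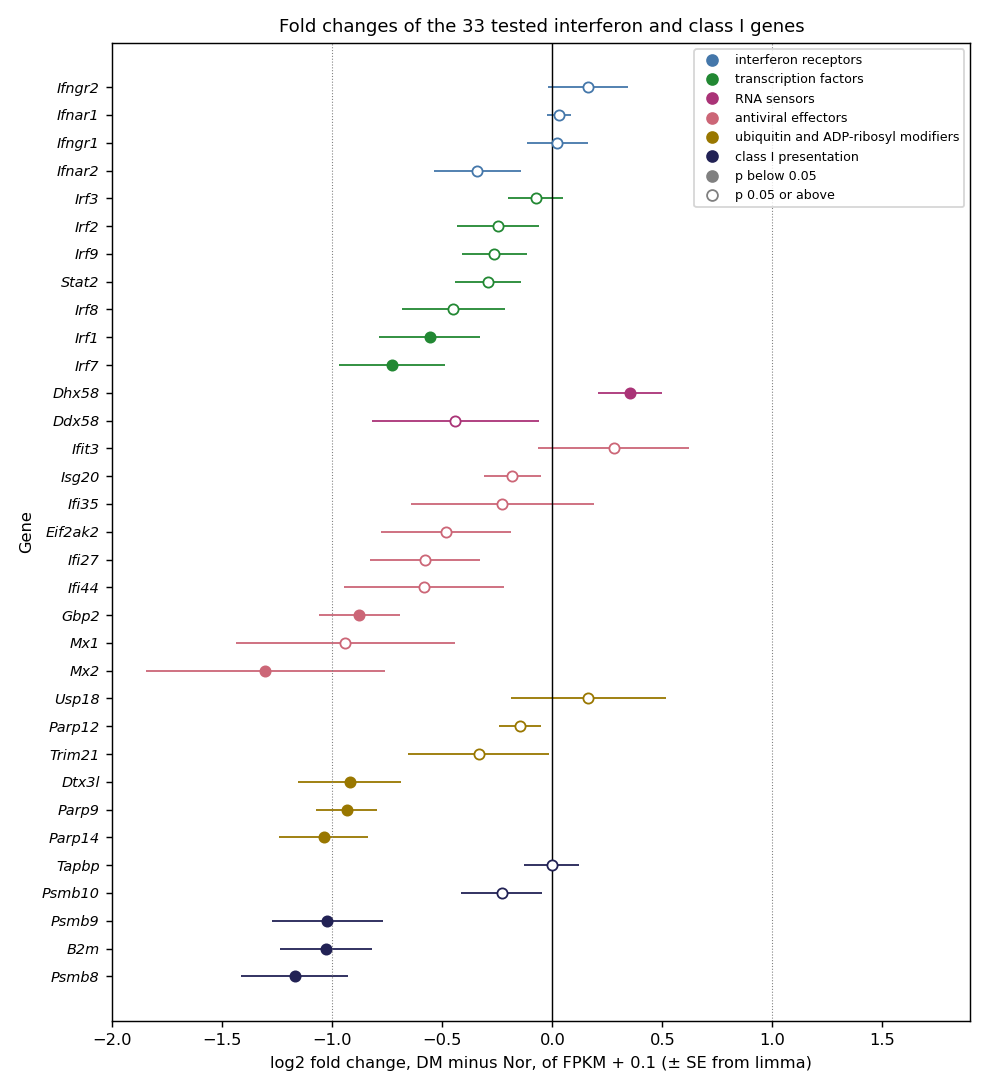
Log2 fold change (DM minus Nor, of FPKM + 0.1) of the 33 tested genes on the x axis, with the genes in rows coloured by role. Points are limma estimates, bars are 1 SE, filled points have an unadjusted p below 0.05, and dotted lines mark log2 fold changes of -1 and 1. The points of 27 genes lie left of 0, and Dhx58 is the filled point to the right.

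The receptors gave no call. Of the 4 chains, none passed the test and none had groups that did not overlap, and their median log2 fold change was 0.03. Ifnar1, the chain shared by all type I interferons and the most abundant gene of the 41, stood at 38.2, 40.1 and 38.7 FPKM in DM 1 to DM 3 and at 37.5, 38.9 and 38.3 FPKM in Nor 1 to Nor 3. Its log2 fold change was 0.03 with an SE of 0.06 (adjusted p = 0.947), the smallest SE among the receptors. Ifnar2, its partner chain, averaged 1.30 ± 0.155 FPKM in DM and 1.68 ± 0.284 FPKM in Nor (SD, n = 3), with DM from 1.14 to 1.45 and Nor from 1.38 to 1.95 FPKM, and its log2 fold change was -0.34 (SE 0.20, adjusted p = 0.788). Ifngr1, which binds interferon gamma, averaged 5.27 ± 0.717 and 5.18 ± 0.577 FPKM, and its signalling partner Ifngr2 averaged 2.25 ± 0.198 and 2.03 ± 0.383 FPKM.

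All 7 transcription factors had a lower mean in DM, and 2 of them, Irf7 and Irf1, passed the unadjusted test. The median of the 7 log2 fold changes was -0.29. Irf7, the factor that amplifies type I interferon production, stood at 0.564, 0.657 and 0.614 FPKM in the DM samples and at 1.24, 1.14 and 0.883 FPKM in the Nor samples. Every DM value was below every Nor value, with a log2 fold change of -0.73 (SE 0.24, adjusted p = 0.574). Irf1, a target of interferon gamma that switches on class I genes, stood at 0.772, 1.11 and 0.806 FPKM in DM and at 1.56, 1.34 and 1.18 FPKM in Nor. The groups again did not overlap, although DM 2 came close to Nor 3, and the log2 fold change was -0.56 (SE 0.23, adjusted p = 0.661). With 1 sample fewer both calls could be lost although the fold changes stayed near these values: that of Irf7 without DM 1, Nor 1 or Nor 2 (log2 fold changes of -0.68, -0.63 and -0.69), and that of Irf1 without DM 1, DM 3, Nor 1 or Nor 2 (-0.47, -0.50, -0.46 and -0.56).

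Stat2 and Irf9, which bind the ISRE together, also had groups that did not overlap but missed the threshold. Stat2 was at 1.77, 1.82 and 1.53 FPKM in DM and at 2.19, 2.15 and 1.99 FPKM in Nor (log2 fold change -0.29, SE 0.15, adjusted p = 0.742). Irf9 was at 2.70, 2.25 and 2.68 FPKM in DM and at 3.47, 2.70 and 3.07 FPKM in Nor (log2 fold change -0.27, SE 0.15, adjusted p = 0.778), and DM 1 lay just under Nor 2. Irf8, a factor of myeloid cells, averaged 1.03 ± 0.152 FPKM in DM and 1.45 ± 0.332 FPKM in Nor with overlapping groups (adjusted p = 0.752). Irf2, which competes with Irf1 for its sites, averaged 1.33 ± 0.199 against 1.59 ± 0.151 FPKM. Irf3, which acts at once when viral nucleic acid is sensed, was the most abundant factor, at 17.9, 19.1 and 15.2 FPKM in DM and 15.6, 19.6 and 19.9 FPKM in Nor, and its groups overlapped (log2 fold change -0.08, SE 0.13, adjusted p = 0.939).

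Of the 3 sensors of viral RNA, Dhx58 had a higher mean in DM, and Ddx58 and Ifih1 had lower means. Dhx58, which encodes LGP2, a regulator of the other sensors, was the only gene of the list that was higher in DM at the unadjusted threshold. That is 3.03% of the tested genes of the list, against 2.47% of all tested genes. It stood at 10.0, 13.6 and 9.62 FPKM in DM and at 9.32, 8.14 and 8.28 FPKM in Nor, with DM 3 just above Nor 1. The log2 fold change was 0.35 (SE 0.14, adjusted p = 0.661), and without DM 2, the highest sample, it was 0.195. Leaving out DM 2, Nor 2 or Nor 3 moved the unadjusted p above the threshold, to 0.108, 0.113 and 0.102. Ddx58, which encodes RIG-I, averaged 0.532 ± 0.153 FPKM in DM and 0.779 ± 0.312 FPKM in Nor with overlapping groups. Ifih1, which encodes MDA5, had a mean of 0.486 FPKM and was therefore not tested. It stood at 0.324, 0.340 and 0.425 FPKM in DM and at 0.587, 0.700 and 0.541 FPKM in Nor, so its groups did not overlap.

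Of the 13 antiviral effectors 9 were tested, and 2 of them, Gbp2 and Mx2, were lower in DM, with a median log2 fold change of -0.58 over the 9. Gbp2, a guanylate-binding protein that attacks the vacuoles of intracellular microbes, stood at 1.16, 1.26 and 1.06 FPKM in DM and at 2.35, 2.498 and 1.84 FPKM in Nor. The DM samples lay close together and well under every Nor sample, a 1.84-fold lower level (log2 fold change -0.88, SE 0.18, adjusted p = 0.325). Mx2, a dynamin-like GTPase that blocks viruses, stood at 0.183, 0.233 and 0.301 FPKM in DM and at 1.58, 0.703 and 0.321 FPKM in Nor. Its log2 fold change of -1.30 was the lowest of the list but had the largest SE, 0.54 (adjusted p = 0.665), and the Nor samples spread widely, with Nor 3 just above DM 3. Its call was lost without DM 1, DM 2, DM 3 or Nor 2, with log2 fold changes of -1.18, -1.30, -1.43 and -1.33.

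Mx1, its paralog, showed the same spread, with 0.243, 0.287 and 0.326 FPKM in DM and 1.40, 0.418 and 0.415 FPKM in Nor (log2 fold change -0.94, SE 0.50, adjusted p = 0.758). Nor 1 was more than the other Nor samples together for Mx1, and without Nor 1 both Mx genes and Trim21 fell under the mean of 0.5 FPKM. Mx1 and Mx2 are similar in sequence, and how reads shared by such copies were assigned is not given in the sources used here. Ifi44, an interferon-induced protein, was at 0.325, 0.538 and 0.526 FPKM in DM and at 1.10, 0.634 and 0.548 FPKM in Nor (log2 fold change -0.59, SE 0.36, adjusted p = 0.805), so the groups were apart by a narrow margin.

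The other tested effectors had overlapping groups. Isg20, an exonuclease that degrades viral RNA and the most abundant effector, was at 7.44, 6.68 and 5.89 FPKM in DM and at 7.47, 8.59 and 6.70 FPKM in Nor (log2 fold change -0.18, SE 0.13, adjusted p = 0.838). Ifi27 averaged 3.16 ± 0.795 against 4.79 ± 1.24 FPKM (adjusted p = 0.671), and Eif2ak2, the kinase PKR that halts translation on double-stranded RNA, had a log2 fold change of -0.48 (adjusted p = 0.801). Ifi35 had a log2 fold change of -0.23 (adjusted p = 0.946). Ifit3, which binds viral RNA in a complex with other IFIT proteins, was among the few genes with a higher mean in DM, with a log2 fold change of 0.28 (adjusted p = 0.92).

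There were 4 effectors that were under 0.5 FPKM and not tested. Oas1a, which makes the messenger that activates RNase L, was listed at 0 in DM 1 and DM 2 and at 0.0511 FPKM in DM 3, against 0.244, 0.0841 and 0.120 FPKM in Nor, so its groups did not overlap. Ifit2 was at 0.256, 0.356 and 0.258 FPKM in DM and at 0.699, 0.639 and 0.337 FPKM in Nor, where Nor 3 lay within the DM range. Rsad2, which encodes viperin, was at 0.186 to 0.412 FPKM in DM and 0.264 to 0.307 FPKM in Nor, and Oasl was at 0.128 to 0.2999 FPKM in DM and 0.195 to 0.347 FPKM in Nor. Both overlapped.

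**Figure D2:**
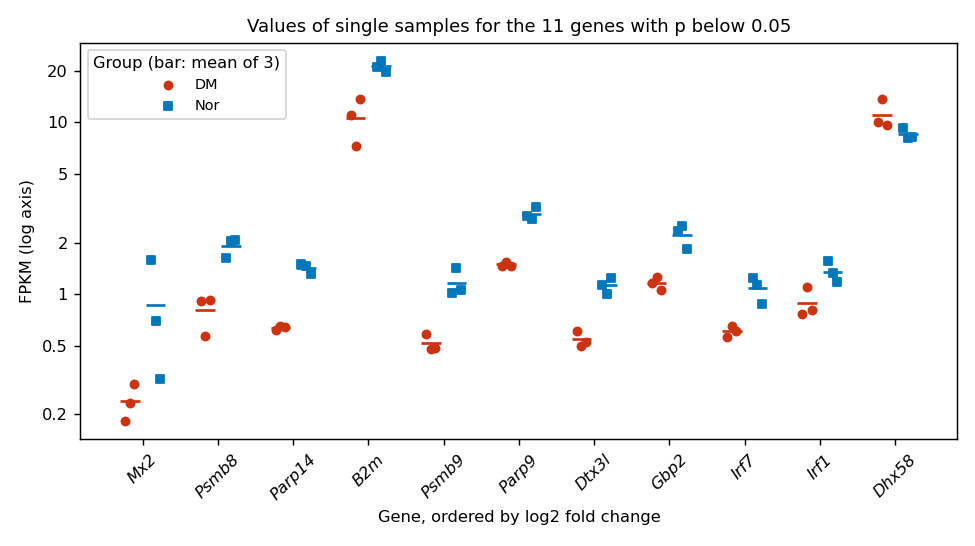
FPKM of single samples (y axis, log scale) for the 11 genes with an unadjusted p below 0.05, ordered by log2 fold change on the x axis, with DM as circles, Nor as squares and a bar at the mean of 3 samples. The Parp9 samples of DM lie between 1.46 and 1.55 FPKM and those of Nor between 2.76 and 3.23 FPKM, whereas the Nor samples of Mx2 spread from 0.321 to 1.58 FPKM.

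Parp9, Dtx3l and Parp14 were all lower in DM, and Parp9 and Parp14 had the lowest p-values of the 33 genes. Parp9 and Dtx3l form a complex that attaches ubiquitin and ADP-ribose at DNA breaks and on histones and strengthens interferon signalling. Parp14 is an ADP-ribosyltransferase. Parp9 stood at 1.46, 1.55 and 1.47 FPKM in DM and at 2.87, 2.76 and 3.23 FPKM in Nor, a 1.91-fold lower level (log2 fold change -0.935, SE 0.14, adjusted p = 0.152). Parp14 stood at 0.620, 0.655 and 0.645 FPKM in DM and at 1.51, 1.45 and 1.31 FPKM in Nor, a 2.06-fold lower level (log2 fold change -1.04, SE 0.20, adjusted p = 0.279). In both genes the DM samples were almost alike, and the gap to the nearest Nor sample was wider than the range within either group.

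Dtx3l stood at 0.611, 0.503 and 0.530 FPKM in DM and at 1.13, 1.01 and 1.25 FPKM in Nor, with every DM sample lower (log2 fold change -0.92, SE 0.23, adjusted p = 0.436). By the order of protein-coding genes in RefSeq, Parp9, Dtx3l and Parp14 are consecutive neighbours, and Parp9 and Dtx3l overlap. Whether reads were counted by strand is not given in the sources used here, so reads from the shared stretch may not be told apart, and whether the genes share reads was not tested. Parp12, a further ADP-ribosyltransferase and the most abundant gene of the group, was at 7.70, 9.13 and 9.01 FPKM in DM and at 9.78, 9.76 and 9.05 FPKM in Nor, with overlapping groups (log2 fold change -0.15, SE 0.10, adjusted p = 0.817).

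The remaining genes of the group did not pass the test. Trim21, a ubiquitin ligase that binds antibody-coated virus, averaged 0.453 FPKM in DM and 0.594 FPKM in Nor (log2 fold change -0.34, adjusted p = 0.888). Usp18, which removes Isg15 and dampens receptor signalling, had a log2 fold change of 0.16 (adjusted p = 0.957). Isg15, the ubiquitin-like protein itself, was not tested at a mean of 0.220 FPKM, and its values of 0.156 to 0.296 FPKM in DM lay inside the range of 0.0489 to 0.385 FPKM in Nor.

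Class I presentation held 3 of the 5 genes that met the criterion of size and p. B2m, the invariant light chain of every class I molecule, was the most abundant of them, at 11.01, 7.30 and 13.6 FPKM in DM and at 21.0, 22.9 and 19.7 FPKM in Nor. Its mean was 10.7 ± 3.18 FPKM in DM and 21.2 ± 1.59 FPKM in Nor (SD, n = 3), a 2.04-fold lower level (log2 fold change -1.03, SE 0.21, adjusted p = 0.307). The DM samples varied more than the Nor samples, and the highest of them remained under the lowest Nor sample.

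Psmb8 and Psmb9 are catalytic subunits that replace Psmb5 and Psmb6 when interferon turns the standard proteasome into the immunoproteasome, and Psmb10 replaces Psmb7. Psmb8 stood at 0.914, 0.570 and 0.932 FPKM in DM and at 1.62, 2.04 and 2.08 FPKM in Nor, a 2.25-fold lower level (log2 fold change -1.17, SE 0.24, adjusted p = 0.322). Psmb9 stood at 0.591, 0.481 and 0.490 FPKM in DM and at 1.02, 1.42 and 1.06 FPKM in Nor, a 2.03-fold lower level (log2 fold change -1.02, SE 0.25, adjusted p = 0.424). For both, all DM samples were lower than all Nor samples. Psmb10 was at 4.22, 3.17 and 2.68 FPKM in DM and at 3.67, 4.44 and 3.59 FPKM in Nor, and its groups overlapped because DM 1 was the second highest sample (log2 fold change -0.23, SE 0.18, adjusted p = 0.857).

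The constitutive counterparts were more abundant, and none of them passed the test. Psmb5 averaged 39.3 ± 1.94 FPKM in DM and 38.9 ± 2.77 FPKM in Nor (adjusted p = 0.982), and the log2 fold changes of Psmb6 and Psmb7 were -0.08 and -0.05. The share that Psmb8 took of the summed FPKM of Psmb8 and Psmb5 was 2.26%, 1.37% and 2.44% in DM and 4.14%, 4.62% and 5.30% in Nor. For Psmb9 with Psmb6 the share was 3.35%, 2.27% and 2.82% in DM and 5.21%, 6.03% and 5.93% in Nor. Both shares were lower in every DM sample than in any Nor sample (exact permutation p = 0.1, the smallest possible). For Psmb10 with Psmb7 it was 15.3%, 11.1% and 9.67% in DM and 12.4%, 14.6% and 12.9% in Nor, so the groups overlapped (exact permutation p = 0.5).

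**Figure D3:**
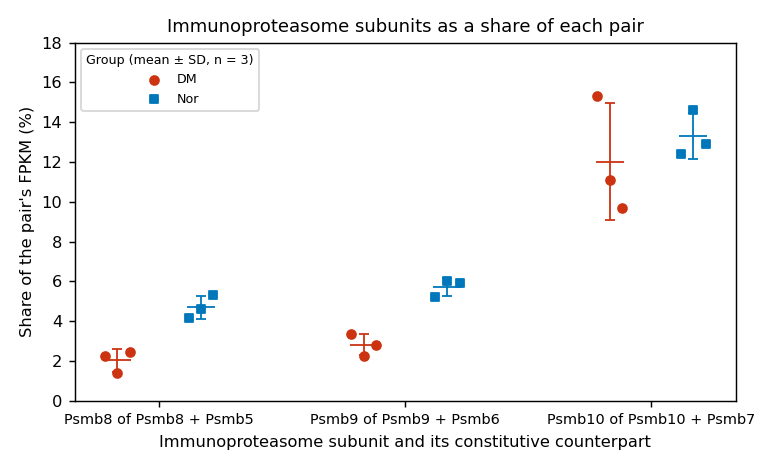
Share of the interferon-induced subunit in the summed FPKM of each pair of alternative proteasome subunits, in percent, by sample, with the group mean and SD (n = 3). DM lies at 1.37% to 2.44% and Nor at 4.14% to 5.30% for Psmb8 with Psmb5, and the groups overlap for Psmb10 with Psmb7.

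The genes that move and load the peptides differed less evenly. Tap1, a chain of the peptide transporter, was at 0.486, 0.347 and 0.256 FPKM in DM and at 0.613, 0.535 and 0.566 FPKM in Nor, with groups that did not overlap, but its mean of 0.467 FPKM left it untested. Tap2, the other chain, was listed at 0 in DM 1 and Nor 1 and at 0.510 and 0.197 FPKM in DM 2 and DM 3 against 0.0831 and 0.557 FPKM in Nor 2 and Nor 3, so no order of the groups could be seen. Tapbp, which encodes tapasin, was at 5.17, 6.12 and 6.03 FPKM in DM and at 6.49, 5.80 and 5.09 FPKM in Nor. Its log2 fold change was -0.003 with an SE of 0.13 (adjusted p = 0.997). Psmb9, Tap1, Psmb8 and Tap2 are consecutive protein-coding genes in RefSeq, within the MHC region.

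Of the 8 genes under 0.5 FPKM, which were not tested, 5 had a lower mean in DM. Groups did not overlap with DM lower for 3 of them (Ifih1, Oas1a and Tap1), and none was apart in the other direction. The share of all genes under 0.5 FPKM with groups apart is not given here, so these counts cannot be set against it. Ifih1 (0.486 FPKM) and Tap1 (0.467 FPKM) lay just under the limit, and Mx1 (0.514 FPKM), Trim21 (0.523 FPKM) and Mx2 (0.553 FPKM) just above it. Over all 41 genes, 32 (78%) had a lower mean in DM, where 11313 of all 20338 tested genes had a log2 fold change below 0.

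Differences between single samples did not run evenly over the list. Nor 1 was the highest of the 6 samples for 13 of the 33 tested genes, Nor 2 for 9 and Nor 3 for 5, while each DM sample was the highest for 2. Nor 3 was the lowest Nor sample for 23 of the 33 genes, and its median deviation from the gene means was -0.01 on the log2 scale, against 0.32 in Nor 1 and 0.28 in Nor 2 and between -0.23 and -0.20 in the DM samples. Without Nor 3 the median log2 fold change of the list was -0.585, and without Nor 1 it was -0.27. The 5 genes of the criterion of size and p became 1 without DM 2, 3 without DM 3 and 2 without Nor 2. Of all genes 1.26%, 1.57% and 1.21% met it in these fits, in either direction. The 11 genes at p below 0.05 became 7 without Nor 2, all lower, against 3.29% of all genes. Gbp2, Parp9, Parp14, Dtx3l, Psmb8, Psmb9 and B2m were at p below 0.05 in the lower direction under every alternative that tested them. Calls were gained for Irf8 and Ifi27 without Nor 3 (log2 fold changes of -0.60 and -0.80), for Ifi27 without DM 3 (-0.75) and for Psmb10 without DM 1 (-0.40).

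**Figure D4:**
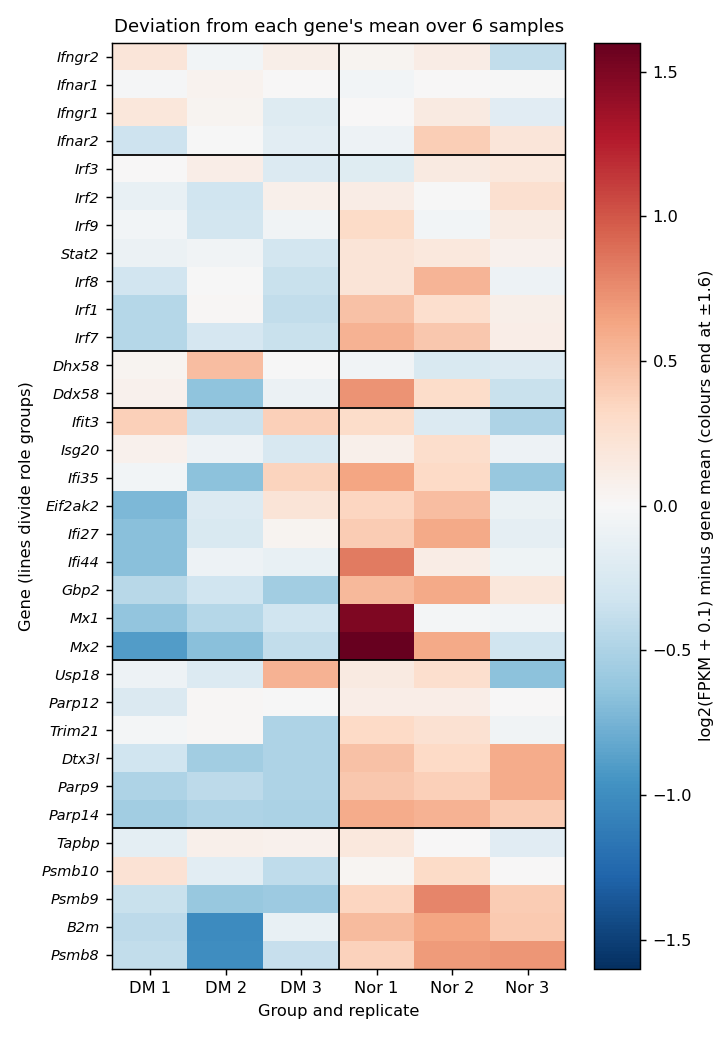
Deviation of each sample from the gene's mean over 6 samples, in log2(FPKM + 0.1), for the 33 tested genes in rows grouped by role and the samples in columns. Blue and red mark values below and above the gene mean, with the scale ending at the values on its bar. Nor 1 and Nor 2 hold most of the high values, and Nor 3 has a median deviation of -0.01.

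Genes of the same pathway outside the list were compared from 7 further lists. Of their 122 genes found 87 were tested, and 15 (against 4.99% of all tested genes) were lower at p below 0.05 and 0 (against 2.47%) higher. Groups were apart with DM lower for 21 (against 8.42%) and with DM higher for 0 (against 4.56%). The log2 fold change was below 0 for 73, as for 11313 of all 20338 tested genes, with a median of -0.12 for the 87. Among the 87 genes 2 met the criterion of size and p with DM lower, Bst2 and RT1-M3-1, against 0.846% of all genes. RT1-M3-1 reached 0.5 FPKM only through Nor (means of 0.337 FPKM in DM and 0.915 FPKM in Nor). Of the 83 that reached it in both groups, 14 (16.9%) were lower at p below 0.05, against 4.73% of all such genes. The criterion was met by 1 of the 83 (1.2%), against 0.575%. Interferon genes themselves were close to the limit of detection. Of 11 found, only Ifng and Ifnk reached 0.5 FPKM. Their means were higher in DM, with log2 fold changes of 0.79 and 0.32, and neither passed the test (adjusted p = 0.792 and 0.907). Ifnb1 was listed at 0 in all samples but 1 of DM, at 0.156 FPKM, and Ifnl1 and Ifnl3 were listed at 0 in every sample. The 11 genes together summed to 2.56, 2.18 and 2 FPKM in DM and to 1.44, 1.73 and 1.79 FPKM in Nor, so that every DM sum was higher. None of the 9 tested JAK, STAT and inhibitor genes and none of the 9 tested nucleic acid receptors and adaptors passed the test, with medians of -0.10 and -0.09.

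Among 24 other interferon-induced genes tested, 6 were lower, against 4.99% of all tested genes: Bst2, Ifitm1, Ifitm2, Samhd1, Ifi47 and Cxcl9. The median of the list was -0.30. Bst2, or tetherin, which holds budding virus at the cell surface, stood at 1.76, 2.44 and 1.95 FPKM in DM and at 5.57, 6.33 and 4.78 FPKM in Nor. Its log2 fold change of -1.40 (SE 0.17, adjusted p = 0.0701) had a lower adjusted p than that of any gene of the 33. Cxcl9, a chemokine induced by interferon gamma that draws T cells, stood at 2.35, 1.89 and 2.29 FPKM in DM and at 3.87, 3.43 and 3.56 FPKM in Nor (log2 fold change -0.71, SE 0.14, adjusted p = 0.279). For both chemokine and tetherin, the groups lay apart. Ifi47, a GTPase, had a log2 fold change of -0.85 (adjusted p = 0.492), and Ifitm1, Ifitm2 and Samhd1 had log2 fold changes of -0.59, -0.65 and -0.40.

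The heavy chains of class I are encoded by the RT1 genes of the rat. Of 20 heavy chains and relatives tested, 4 passed with DM lower (RT1-A2, RT1-CE16, RT1-M3-1 and Fcgrt), against 4.99% of all tested genes. With DM higher 0 passed, against 2.47%, and the median was -0.25. RT1-A2, a classical heavy chain, was at 15.7, 8.33 and 16.1 FPKM in DM and at 32.3, 22.0 and 19.4 FPKM in Nor (log2 fold change -0.895, SE 0.29, adjusted p = 0.559), and its lowest sample, DM 2, was also the lowest for B2m. RT1-A1 averaged 5.75 ± 0.822 FPKM in DM and 7.99 ± 2.89 FPKM in Nor (adjusted p = 0.783), RT1-CE5 had a log2 fold change of 0.03, and RT1-M6-2 had the highest of the list, 0.50 (adjusted p = 0.722). The called entry of RT1-CE16 had overlapping groups. A second entry with that symbol was not tested and averaged 0.206 FPKM in DM and 0.0972 FPKM in Nor. RT1 genes form a family of near-identical copies, and reads could have been split among them, so values of single RT1 genes are uncertain.

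Peptide loading and trimming genes included 4 of 9 that were lower at p below 0.05, against 4.99% of all tested genes, with a median of -0.375. They were Psme1 and Psme2, the PA28 activator of the proteasome (log2 fold changes of -0.50 and -0.40), Tapbpl, a tapasin relative (-0.58), and Erap1, the aminopeptidase that trims peptides in the endoplasmic reticulum (-0.38). Of 14 constitutive proteasome genes 1 was lower, against the same 4.99%: Psmb2 (log2 fold change -0.47, adjusted p = 0.381). The median of that list was -0.06.

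Markers of cells that the tissue could hold were compared from the same fit, and their part in the results was not tested. The counts of all marker lists stand beside 4.99% of all tested genes lower at p below 0.05 and 2.47% higher. A log2 fold change below 0 was seen for 11313 of all 20338 tested genes. Of 9 tested macrophage markers 3 were lower (Cd68, Csf1r and C1qa) with a median of -0.74, and 9 of the 10 found had a lower mean in DM. Their summed level was 134 to 142 FPKM in DM and 110 to 154 FPKM in Nor, and most of it came from Aif1, at 101 to 109 FPKM in DM and 73.9 to 114 FPKM in Nor. Of 4 tested T and NK cell markers 1 was lower, Cd8a, with sums of 3.25 to 4.23 FPKM in DM and 4.45 to 6.44 FPKM in Nor. Endothelial markers summed to 8.53 to 8.75 FPKM in DM and 8.95 to 11.9 FPKM in Nor with none of 6 past the test, and Cldn5 was listed at 0 in every sample.

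Leydig cell markers, the genes of the testosterone-making cells, were lower for 6 of 7 tested, with a median of -1.24, and summed to 44.5, 31.2 and 60.1 FPKM in DM 1 to DM 3 and 108, 121 and 87.3 FPKM in Nor 1 to Nor 3. The order within each group was that of B2m, with DM 2 lowest, DM 3 highest, Nor 2 highest and Nor 3 lowest, which was seen after the values were known. None of Gbp2, Parp9, Parp14, Dtx3l, Psmb8 and Psmb9 had that order in both groups. Psmb8 had it within DM and Gbp2 had it within Nor. DM 2 was also the lowest DM sample for Dtx3l and Psmb9, and Nor 2 the highest Nor sample for Psmb9. By contrast, DM 2 was the highest DM sample for Gbp2, Parp9 and Parp14, and Nor 3 the highest Nor sample for Parp9, Dtx3l and Psmb8. The DM values of Parp9 and of Parp14 lay close together. Sertoli, peritubular, spermatocyte and spermatid markers held none that passed the test, with medians of 0.10, -0.16, -0.02 and -0.06, and among 6 spermatogonial markers Kit was lower and Uchl1 higher. Spermatid markers summed to 7370 to 10051 FPKM over the 6 samples, so genes that define the labelled tissue were abundant in every sample.

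**Figure D5:**
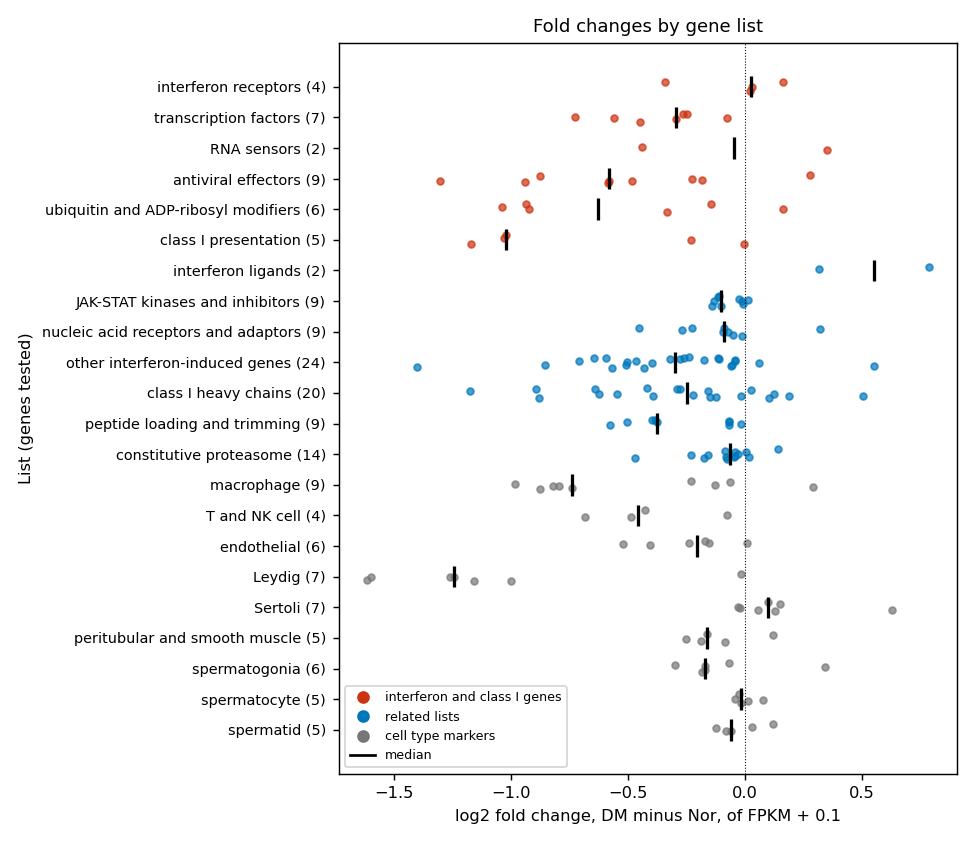
Log2 fold changes (DM minus Nor, of FPKM + 0.1) of the tested genes of each list, with 1 point a gene and a vertical bar at the median. The number of genes tested stands beside the list. Among the 6 groups of the 41 genes the medians run from 0.03 for the receptors to -1.02 for class I presentation, the 2 interferon ligands have the highest median, 0.55, and among the markers that of the Leydig list is -1.24.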

How the data were processed

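The authors checked reads with FastQC, screened rRNA with BWA, aligned with STAR, assembled transcripts with StringTie and deposited FPKM per gene, 1 column per sample. Tool versions, genome build and strandedness are not given in the sources used here, and the authors' DESeq2 screen could not be repeated without counts. Here log2(FPKM + 0.1) was compared over 20338 genes whose mean reached 0.5 FPKM, with limma 3.58.1 (lmFit, eBayes with trend, two-sided, Benjamini-Hochberg) in R 4.3.3, and single values by exact two-sided permutation (scipy 1.17.1, Python 3.11.15). "Called" means an unadjusted p below 0.05. The members and lists were chosen with earlier results of these data known. Every gene of the list was named, with values per sample where p was below 0.05, the groups did not overlap, or the gene was the most abundant of its role or a core class I gene.

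Column totals were 453304 to 478211 FPKM. Reads per library are unknown, and relative depths read from low values were 0.966 to 1.09 in DM and 0.893 to 1.02 in Nor. No pair of columns was identical. The fit was tested on simulated data. The 17 alternatives were pseudocounts of 1 and 0.01, no filter, a limit of 1 FPKM, TPM rescaling, median-ratio scaling, eBayes without trend or robust, the replicate block, protein-coding genes only, same symbols summed, and leaving out each sample.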

Additional observations from a re-analysis of the deposited data

How the results depend on the processing

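None of the 11 called genes of the list changed direction under any of the 17 alternatives that tested it. Called genes of the related and marker lists were not followed one by one. The 5 genes with a log2 fold change of -1 or less at p below 0.05 became 0 with a pseudocount of 1, which shrinks the changes of low genes. They became 3 with a mean of at least 1 FPKM or with median-ratio scaling. Of all genes 0.447%, 1.03% and 1.23% met the criterion in these fits, in either direction. With the mean of at least 1 FPKM, which tests fewer genes, 6 genes were at p below 0.05 (5 lower). Of all genes tested at that limit, 4.8% were lower and 2.56% higher at p below 0.05. Groups did not overlap for 9 genes of the list, and the share of all genes at that limit is not given here. After adjustment 1 gene passed with eBayes without trend (Parp14, adjusted p = 0.0425) and 1 with protein-coding genes only (Parp9, adjusted p = 0.0288). Leaving out each sample in turn gave 1 to 6 genes for the criterion of size and p, against 1.21% to 1.65% of all genes. At p below 0.05 there were 7 to 12 genes (7 to 12 lower). Of all genes 3.29% to 5.3% were lower and 1.61% to 2.6% higher in these fits. After adjustment there were 0, and the medians were -0.585 to -0.268. Groups were apart for 15 to 22 genes, and for 20.9% to 25.7% of all genes in either direction, as fewer samples overlap less. In the related lists 11 to 17 genes were called (10 to 16 lower). Irf1 missed the threshold under 7 of 17 alternatives, Irf7 under 3 of 16, Dhx58 under 5 of 17 and Mx2 under 6 of 15. Other genes passed it in single fits by limma: Stat2 with eBayes without trend (unadjusted p = 0.0255) and Ifi27 with TPM rescaling (0.0457). With protein-coding genes only, Ifi27 (unadjusted p = 0.0305) and Mx1 (0.0488) passed too. Median-ratio scaling moved the median of all genes from -0.021 to 0.008 and the lower share of all calls from 66.9% to 53%. The same replicate numbers are used in both groups, whose rats were treated differently. Deviations of same-numbered samples correlated at 0.106, 0.0153 and 0.0979, with DM 2 closest to Nor 3. With the replicate number as a block, 8 genes were at p below 0.05, all lower, against 5.15% of all genes. The criterion was met by 4 (without Mx2), against 1.4% of all genes. Without the filter Oas1a, at a mean of 0.0832 FPKM, was also called, and 6 genes met the criterion, against 2.02% of all genes. Counting genes that reached 0.5 FPKM in both groups, which was chosen after seeing the data, gave 10 genes at p below 0.05, 4 for the criterion, 12 with groups apart and 14 in the related lists. Reads per gene are unknown, so the counting error of the low genes is unknown too.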

Other observations

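The RNA sensors were present at unequal levels, with group means of 11.1 FPKM in DM and 8.58 FPKM in Nor for Dhx58 and of 0.532 and 0.779 FPKM for Ddx58.

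Aif1 was the only macrophage marker with a higher mean in DM, at 105 FPKM against 87.5 FPKM in Nor (adjusted p = 0.768). Groups also overlapped for Mrc1, Adgre1, Cd163, C1qb and C1qc, with log2 fold changes of -0.06, -0.13, -0.23, -0.88 and -0.74. Csf1r was at 1.11, 1.32 and 1.38 FPKM in DM and at 2.22, 2.54 and 2.06 FPKM in Nor (log2 fold change -0.795, adjusted p = 0.336).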
